A study of Mus musculus with 6 samples.

Results

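Glutathione S-transferases are enzymes that join the thiol of glutathione to electrophilic compounds, and the 10 genes described here cover 7 classes of the mouse family. They are Gsta4 of the alpha class, Gstm1, Gstm2 and Gstm5 of the mu class, Gstp1 of the pi class, Gstt1 and Gstt2 of the theta class, Gsto1 of the omega class, Gstk1 of the kappa class and Gstz1 of the zeta class. They were taken by target name (GSTA4, GSTM1, GSTM2, GSTM5, GSTP1, GSTT1, GSTT2, GSTO1, GSTK1 and GSTZ1), and each of the 10 had 1 target among the 30828 targets of the deposited series table. The samples were MC38 cells, a mouse colorectal cancer cell line, grown in RPMI medium with foetal calf serum. The groups were cells kept for 24 h with EPA (eicosapentaenoic acid, a polyunsaturated fatty acid of fish oil, here unesterified) at 50 µM, and control cells, with 3 samples each. Total RNA of each sample was read on 1 Illumina mouse bead array. Neither a time nor a vehicle is labelled for control cells, and effects of these and of EPA cannot be told apart. Separate cultures are not stated for the replicates either, so the p-values rest on a spread between samples that may be purely technical.

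The cytosolic classes share a fold and differ in the compounds they accept. Alpha class GSTA4 is known for conjugating 4-hydroxynonenal, an aldehyde formed when polyunsaturated fatty acids are peroxidised. Mu and pi enzymes accept many electrophiles, and several of their genes are known targets of the transcription factor NRF2. Omega enzymes act more as thiol transferases, kappa enzymes lie in mitochondria and peroxisomes, and the zeta enzyme is maleylacetoacetate isomerase of tyrosine breakdown.

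Of the 10 genes, the 3 mu genes and the pi gene rose with EPA and the zeta gene fell. The alpha, theta, omega and kappa genes of the 10 did not pass the test. Gstm1 had the largest change of the 10, at 1.69-fold, and the other rises lay between 1.25-fold and 1.32-fold. Gstz1 was 1.26-fold lower with EPA. Genes of these classes outside the 10 differed in part. Gsta2 (alpha, tested only through its EPA values) and Gstt3 (theta) passed as rises, and Gstm4 (mu, log2 -0.26) did not pass. Groups were compared with limma on log2 of the normalised intensity, with an adjusted p under 0.05 as the threshold, over 9267 named genes above background. Of the 10 transferase genes, 4 rose (18.4% of all genes tested did) and 1 fell (15.6% of all genes tested did). The 5 called of 10 stand beside a share of 34.0% called among all genes tested. The EPA and control values did not overlap for 6 of the 10 genes (47.6% of all genes tested), with 5 higher with EPA (24.9% of all genes) and 1 lower (22.7% of all genes). The median log2 fold change was 0.24 for the 10 genes and 0.01 for all genes tested. An intensity of 39.5 was the background limit, and 9 of the 10 genes exceeded it on all 6 arrays. The exception was Gstt2, which exceeded it on the 3 control arrays and on 2 of the 3 EPA arrays. RNA amount per cell and the make-up of the culture cannot be told apart in such bulk samples.

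**Figure D1:**
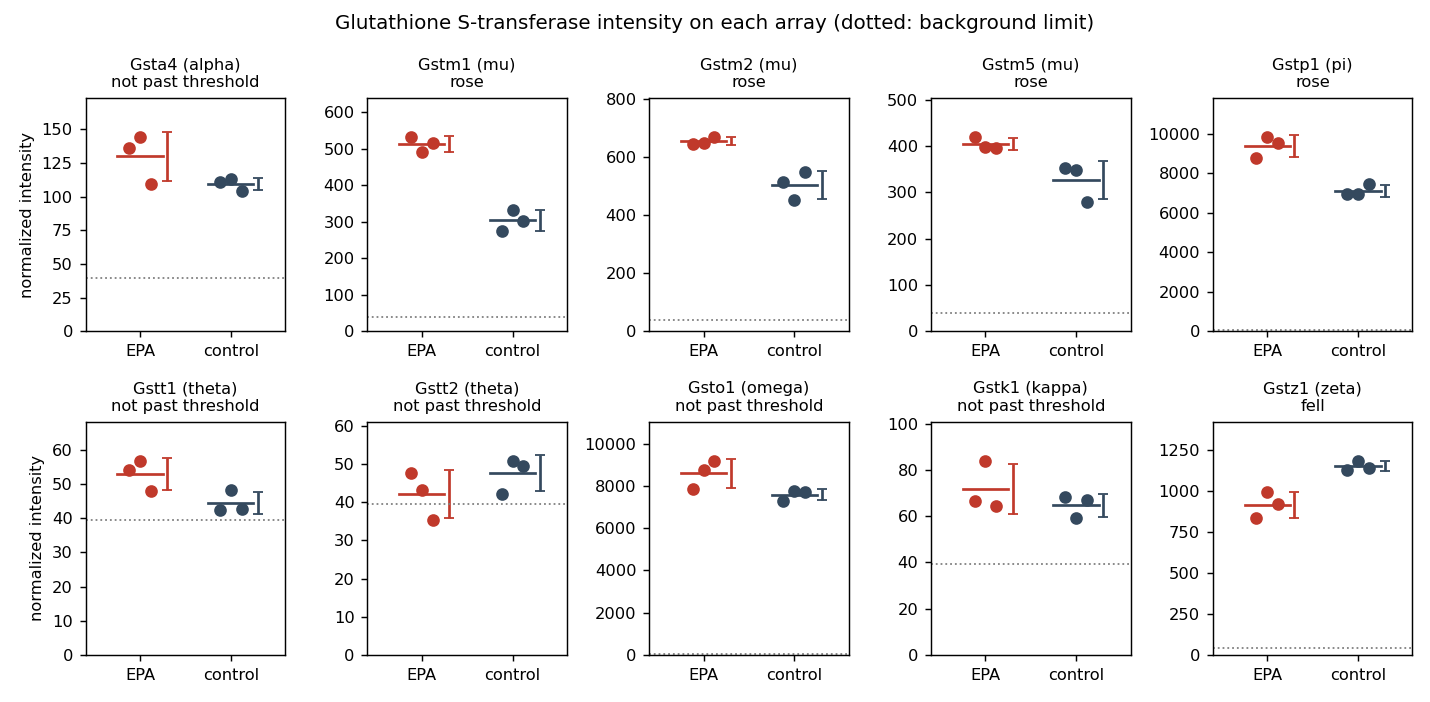
Normalised intensity (y axis, linear, from 0) of each of the 10 genes on the 3 EPA and the 3 control arrays, with the group mean as a bar, the SD beside it and the background limit of 39.5 as a dotted line. The EPA points lie above all control points for Gstm1, Gstm2, Gstm5, Gstp1 and Gsto1 and below them for Gstz1, while Gstt1 and Gstt2 lie near the limit.

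In the mu class, the intensity of Gstm1 was 533, 491 and 516 in the EPA samples and 276, 333 and 303 in the control samples. All EPA values lay above all control values, with means of 513 ± 21.0 and 304 ± 28.3 (SD, n = 3 each), and 2.74% of all genes tested had a larger absolute change. The log2 fold change was 0.76 (SE 0.0853, limma adjusted p = 0.000184). Gstm2 had 644, 646 and 669 in the EPA samples and 514, 450 and 547 in the control samples. Its groups did not overlap either, and its log2 fold change was 0.38 (SE 0.0851, limma adjusted p = 0.00759). Gstm5 had 420, 399 and 397 in the EPA samples and 353, 349 and 280 in the control samples. Here too the groups did not overlap, but the gap between them was narrower, and control replicate 3 was the low value. The log2 fold change of Gstm5 was 0.32 (SE 0.0970, limma adjusted p = 0.0305). It was 0.21 without control replicate 3, and the call was lost without that sample and without EPA replicate 1, 2 or 3.

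The change of Gstm1 exceeded that of Gstm2 by 0.38 and that of Gstm5 by 0.44 on the log2 scale. The within-array ratios of Gstm1 to each of these did not overlap between EPA and control arrays. An exact two-sided permutation test gave p = 0.10 for both, the smallest value that 3 against 3 samples allow, or 0.125 after adjustment over 5 pairs of genes of 1 class. Gstm2 and Gstm5 differed in their change by 0.06 (exact permutation p = 0.80). The mu genes lie beside each other on chromosome 3 in the order Gstm5, Gstm7, Gstm6, Gstm3, Gstm2, Gstm1 and Gstm4, and their sequences are alike. Whether a probe also binds a neighbour's RNA was not tested, since probe sequences were not used here. Of the other mu genes, Gstm4 had 64.9, 48.4 and 40.8 with EPA, against 62.2, 54.1 and 64.8 in control cells, and did not pass the test (log2 -0.26, limma adjusted p = 0.22). Without EPA replicate 1 it passed as a fall (log2 -0.44). Gstm3, Gstm6 and Gstm7 were not above background in either group.

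The 250 bases before an annotated start are shown for the 3 mu genes, which stand in 1 cluster. They come from RefSeq on GRCm38.p6 and run 5′ to 3′ on the gene's strand. Capitals mark a match to the core of the antioxidant response element, through which NRF2 acts (TGACNNNGC, both strands), or to the AP-1 motif (TGAGTCA, both strands). The windows are chr3:108017974-108018223 on the minus strand for Gstm1, chr3:107986421-107986670 on the minus strand for Gstm2 and chr3:107895604-107895853 on the plus strand for Gstm5. For Gstm1, which has 2 annotated starts, the window of the upstream start is shown, and that of the downstream start was not aligned.
Gstm1: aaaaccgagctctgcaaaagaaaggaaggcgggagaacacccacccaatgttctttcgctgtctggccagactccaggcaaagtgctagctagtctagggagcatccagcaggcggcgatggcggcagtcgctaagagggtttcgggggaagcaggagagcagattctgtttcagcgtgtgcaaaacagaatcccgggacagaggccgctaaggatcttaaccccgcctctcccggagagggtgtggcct
Gstm2: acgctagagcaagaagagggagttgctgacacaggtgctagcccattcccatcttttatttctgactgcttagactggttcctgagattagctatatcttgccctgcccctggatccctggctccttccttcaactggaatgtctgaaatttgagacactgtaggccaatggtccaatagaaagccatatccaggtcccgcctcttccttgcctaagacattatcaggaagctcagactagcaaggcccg
Gstm5: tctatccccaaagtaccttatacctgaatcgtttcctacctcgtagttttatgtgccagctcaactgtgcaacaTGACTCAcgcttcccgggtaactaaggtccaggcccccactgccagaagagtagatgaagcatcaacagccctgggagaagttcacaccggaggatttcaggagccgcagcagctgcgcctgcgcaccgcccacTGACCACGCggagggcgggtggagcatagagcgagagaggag
In global alignment the Gstm1 window had 49.8% identity with that of Gstm2 and 49.3% with that of Gstm5. All printed pairs but that of Gstp1 and Gstp2 lay between 47.2% and 54.2%, and several pairs of different classes were above these mu pairs. The Gstm5 window held 1 core of the antioxidant response element, with its first base 42 bases before the start, and 1 AP-1 motif 176 bases before it. Neither motif was found in the windows of Gstm1 and Gstm2. Over windows of 300 bases (250 before and 50 after the start), 12.4% of all 32851 windows held the core and 5.2% the AP-1 motif. Counted by gene, 14.0% of all 27025 genes held the core in any window and 5.95% the AP-1 motif, and of the 8 member genes with a window 1 held the core and 2 the AP-1 motif. The AP-1 motif was added after these sequences had been read. A match is a run of letters and no measure of binding.

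Gstp1 is the pi class gene of the set. Its intensity was 8748, 9833 and 9521 in the EPA samples and 6935, 6935 and 7435 in the control samples. The EPA values lay above all control values, with means of 9367 ± 559 and 7101 ± 289 (SD, n = 3 each). The rise was 1.32-fold (log2 0.40, SE 0.0762, limma adjusted p = 0.00333). Leaving out any 1 sample kept the call (adjusted p up to 0.0157). Its neighbour on chromosome 19, Gstp2, encodes a second pi class enzyme and rose 1.64-fold. Gstp2 had 334, 367 and 346 with EPA, against 251, 186 and 208 in control cells (log2 0.71, SE 0.108, limma adjusted p = 0.000966). The log2 change of Gstp2 exceeded that of Gstp1 by 0.31 (exact permutation p = 0.10, adjusted p = 0.125). That p is the smallest that 3 against 3 samples allow, so the test could not pass. Whether the probes of either gene also bind the other RNA was not tested.

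The promoters of the 2 pi genes are shown because both genes rose and the windows are alike, with 78.5% identity over 265 aligned columns. The windows are chr19:4037913-4038162 for Gstp1 and chr19:4042222-4042471 for Gstp2, both on the minus strand, from RefSeq on GRCm38.p6.
Gstp1: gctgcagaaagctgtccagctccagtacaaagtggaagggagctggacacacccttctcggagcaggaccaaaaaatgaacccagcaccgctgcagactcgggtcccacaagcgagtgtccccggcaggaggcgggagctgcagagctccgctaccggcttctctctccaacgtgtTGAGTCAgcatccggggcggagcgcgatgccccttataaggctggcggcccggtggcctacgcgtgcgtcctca
Gstp2: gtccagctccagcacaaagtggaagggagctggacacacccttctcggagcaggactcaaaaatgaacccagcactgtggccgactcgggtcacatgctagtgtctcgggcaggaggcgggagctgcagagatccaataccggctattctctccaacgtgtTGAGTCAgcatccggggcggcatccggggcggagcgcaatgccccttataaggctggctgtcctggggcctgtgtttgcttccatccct
Each window held 1 AP-1 motif, with its first base 74 bases before the start in Gstp1 and 89 bases before it in Gstp2. Neither held the core of the antioxidant response element as spelled above (TGACNNNGC). In both windows the AP-1 motif runs on as TGAGTCAGC, which departs from that core only by a G in place of the C after TGA. A core with G at that place was not searched for.

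Gstz1, which isomerises maleylacetoacetate, was the member that fell. Its intensity was 832, 992 and 920 in the EPA samples and 1127, 1185 and 1137 in the control samples. Every EPA value lay below every control value, and the means were 915 ± 80.0 and 1150 ± 31.2 (SD, n = 3 each). The log2 fold change was -0.33 (SE 0.0820, limma adjusted p = 0.0119). It ran from -0.39 to -0.27 when 1 sample was left out, and the call held each time. The first of its 2 RefSeq windows, chr12:87146915-87147164 on the plus strand of GRCm38.p6, is shown beside those of the genes that rose. It held neither motif.
Gstz1: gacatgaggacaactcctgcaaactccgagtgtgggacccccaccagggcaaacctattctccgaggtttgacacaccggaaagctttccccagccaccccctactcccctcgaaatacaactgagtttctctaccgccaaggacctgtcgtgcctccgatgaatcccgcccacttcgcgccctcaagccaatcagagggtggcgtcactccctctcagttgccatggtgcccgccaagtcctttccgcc

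Gsta4 did not pass the test. Its intensity was 136, 145 and 109 with EPA, against 111, 113 and 105 in control cells. EPA replicates 1 and 2 lay above all control values, whereas EPA replicate 3 lay among them. The log2 fold change was 0.24 (SE 0.105, limma adjusted p = 0.109), with a 95% confidence interval of 0.00 to 0.47. Without EPA replicate 3 it was 0.36 and passed (limma adjusted p = 0.0165). Of the other alpha genes, Gsta2 passed the test as a rise, with 53.6, 49.0 and 54.5 in the EPA samples, against 39.4, 37.3 and 43.1 in the control samples (log2 0.39, SE 0.0821, limma adjusted p = 0.00532). Only 1 of the control values for Gsta2 exceeded the limit, so the gene was tested only through its EPA values and its change has no exact size. With the background subtracted its log2 fold change was 1.06, and the call was lost when dim targets were tested too (limma adjusted p = 0.0598). Gsta1 and Gsta3 were not above background in either group, and at that level the Gsta1 values were 31.3, 30.3 and 34.6 with EPA and 23.7, 25.5 and 26.3 in control cells.

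The theta genes, whose enzymes act on small halogenated compounds among others, gave dim signals. Gstt1 had 54.0, 56.9 and 47.9 in the EPA samples and 42.5, 48.2 and 42.6 in the control samples. EPA replicate 3 lay just below control replicate 2, so the groups overlapped. The log2 fold change of Gstt1 was 0.25 (SE 0.0895, limma adjusted p = 0.0545), and it passed without EPA replicate 3 (adjusted p = 0.0341) and without control replicate 2 (adjusted p = 0.0405). Gstt2 had 47.7, 43.3 and 35.3 with EPA, against 42.2, 50.9 and 49.6 in control cells. The groups overlapped, and the log2 fold change of Gstt2 was -0.18 (SE 0.118, limma adjusted p = 0.264). After subtraction of the background level neither theta gene passed, at log2 fold changes of 0.60 for Gstt1 and -0.56 for Gstt2. Their changes differed by 0.43 (exact permutation p = 0.10, adjusted p = 0.125). Here too that p is the smallest that 3 against 3 samples allow. Another theta gene, Gstt3, rose 1.17-fold, with 56.1, 57.7 and 63.5 in the EPA samples and 50.0, 50.6 and 51.2 in the control samples (limma adjusted p = 0.0435). That call was lost without EPA replicate 2 or 3 and without control replicate 1, 2 or 3. Gstt4 was not above background.

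Gsto1, which encodes a thiol transferase of the omega class, had 7857, 8748 and 9203 in the EPA samples and 7286, 7764 and 7694 in the control samples. The EPA values lay above all control values, but the lowest of them by little. The log2 fold change of 0.18 did not pass (SE 0.0807, limma adjusted p = 0.114, 95% confidence interval -0.00 to 0.36), although it was 0.24 and passed without EPA replicate 1 (adjusted p = 0.0391). Gsto2, its neighbour, had a log2 fold change of 0.10 (limma adjusted p = 0.439). Gstk1, the mitochondrial and peroxisomal kappa gene, had 66.6, 84.0 and 64.6 with EPA, against 68.1, 59.0 and 67.1 in control cells. A single EPA value lay above the control range, and the log2 fold change of 0.14 (SE 0.109, limma adjusted p = 0.351) was 0.02 without that sample, EPA replicate 2. After background subtraction it was 0.23.

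**Figure D2:**
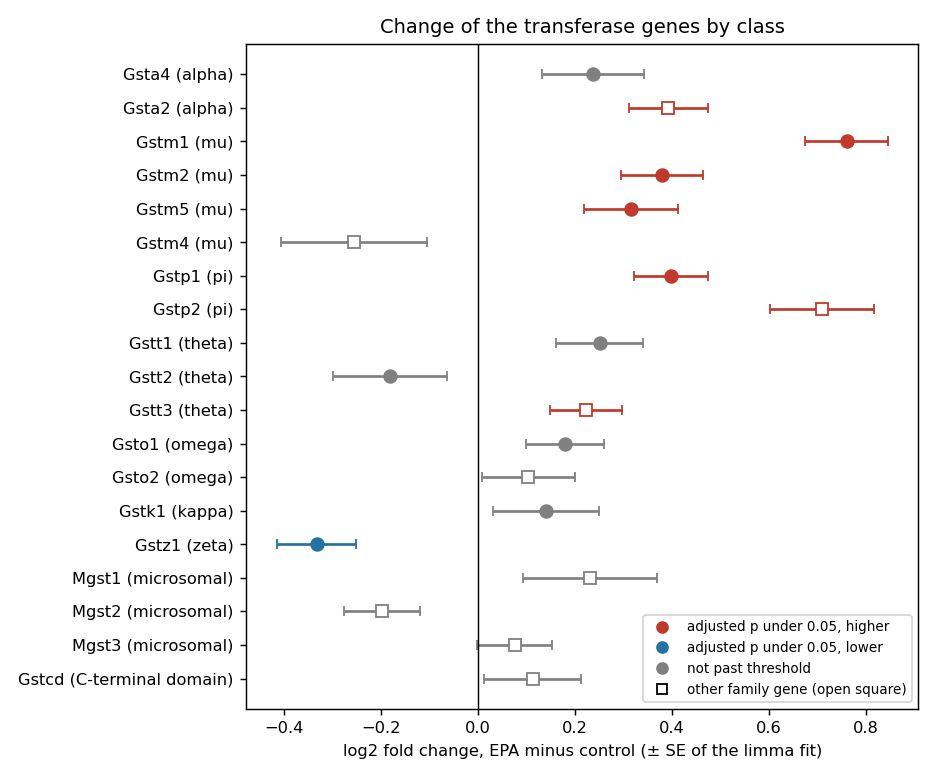
Log2 fold change, EPA minus control (x axis), with the SE of the limma fit, for the 10 genes (filled circles) and the other measured family genes (open squares), ordered by class. The mu genes Gstm1, Gstm2 and Gstm5 and the pi genes Gstp1 and Gstp2 lie between 0.32 and 0.76, and Gstz1 lies at -0.33.

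Of the 17 further transferase genes looked for, 9 were tested, of which 3 rose, 0 fell and 6 did not pass in limma. Their called share of 33.3% lies near the 34.0% of all genes tested. At an unadjusted p under 0.05, 1 of these 9 was lower. It was Mgst2, a microsomal enzyme that can also form leukotriene C4, with 938, 1036 and 930 in the EPA samples, against 1044, 1146 and 1145 in the control samples. Its groups did not overlap, and its log2 fold change of -0.20 had a limma adjusted p of 0.0764. Neither of the other microsomal genes passed, with log2 fold changes of 0.08 for Mgst3 and 0.23 for Mgst1. Mgst1 had 52.0, 56.1 and 51.3 with EPA, against 47.0, 35.5 and 55.4 in control cells. Since 1 control value lay under the limit, Mgst1 was tested only through its EPA values. It passed as a rise without control replicate 3 (log2 0.38), a fit that kept the value under the limit. Gstcd, which carries a transferase C-terminal domain, had 0.11. Hpgds, the sigma class prostaglandin D synthase gene, was not above background. Over the whole family of 19 tested genes, 7 rose and 1 fell, or 42.1% called, near the 34.0% of all genes tested. Of the 19, 3 were kept through 1 group only, Gsta2 and Mgst1 through EPA and Gstt2 through control. Gsta2 is among the 7 that rose, so its place there follows in part from the filter.

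**Figure D3:**
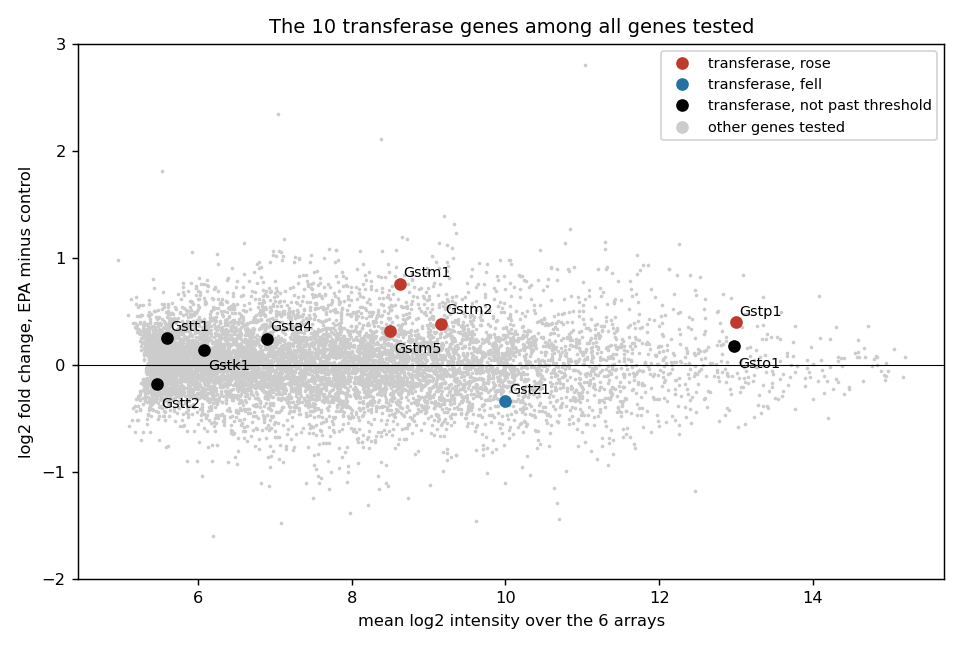
Log2 fold change, EPA minus control (y axis), against mean log2 intensity over the 6 arrays (x axis) for the 9267 genes tested (grey) and the 10 transferase genes (large points). Gstm1 at 0.76 lies above the 95th percentile of all genes (0.54), while the other 9 lie between -0.33 and 0.40.

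The genes that supply glutathione moved unevenly. Of 22 listed, 15 were tested, of which 4 rose, 2 fell and 9 did not pass, with a median log2 fold change of 0.10. Their called share of 40% lies near the 34.0% of all genes tested. The pentose phosphate enzymes Pgd and G6pdx, which make the NADPH that keeps glutathione reduced, rose 1.51-fold and 1.29-fold (limma adjusted p = 0.000994 and 0.00728). Slc7a11, the cystine importer, rose 1.15-fold (limma adjusted p = 0.0386), a call lost without any 1 of the 6 samples. Gclm, the modifier subunit of the enzyme that makes gamma-glutamylcysteine, is named after its values were seen. It had 972, 573 and 605 in the EPA samples and 458, 521 and 365 in the control samples (log2 0.65, SE 0.194, limma adjusted p = 0.0275). EPA replicate 1 was far the highest, and the log2 fold change ran from 0.41 to 0.79 when 1 sample was left out, with the call lost without control replicate 1 or 3. The catalytic subunit gene Gclc was not above background. The members that fell were Slc1a5, a glutamine importer, and Chac1, which breaks glutathione down. Slc1a5 had 50.9, 56.5 and 54.2 with EPA, against 92.9, 87.1 and 95.7 in control cells (log2 -0.77, SE 0.0760, limma adjusted p = 9.18e-05). Chac1 had 2557, 2366 and 2336 with EPA, against 3551, 3812 and 4018 in control cells, and its groups did not overlap (log2 -0.65, SE 0.0780, limma adjusted p = 0.00027).

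Of 16 tested genes for other users of glutathione, 3 rose, 1 fell and 12 did not pass, with a median log2 fold change of -0.02. Their called share was 25%, below the 34.0% of all genes tested. Gpx4, which reduces lipid hydroperoxides in membranes, was 1.43-fold lower. It had 3812, 3910 and 4093 with EPA, against 5590, 5173 and 6139 in control cells (log2 -0.51, SE 0.0823, limma adjusted p = 0.00129). Glrx, a glutaredoxin that removes glutathione from proteins, rose 1.45-fold, with 2663, 2557 and 3110 in the EPA samples and 1932, 1946 and 1840 in the control samples. Gpx7, a peroxidase of the endoplasmic reticulum, passed the test as a rise but was tested only through its EPA values, since 1 control value lay under the limit. Its log2 fold change was 0.34, or 0.86 with the background subtracted, and the call was lost without EPA replicate 3 or control replicate 1. Ethe1, a mitochondrial enzyme that oxidises glutathione persulfide, rose 1.18-fold, a call lost without EPA replicate 1, 2 or 3 and without control replicate 1 or 2.

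Genes that dispose of glutathione conjugates went both ways. Of 13 listed, 6 were tested, with 2 higher and 2 lower (18.4% of all genes tested rose and 15.6% fell). The conjugate exporter genes Abcc1 and Abcc4 rose 1.21-fold and 1.27-fold (limma adjusted p = 0.0191 and 0.0218). The Abcc1 call was lost without EPA replicate 2 or control replicate 1 or 3, and the Abcc4 call without EPA replicate 1 or control replicate 3. Abcc5, another exporter of that family, was 1.39-fold lower (limma adjusted p = 0.00488). Acy1, an aminoacylase that deacetylates mercapturates, was 1.26-fold lower (limma adjusted p = 0.00491). Abcc5 had 83.2, 87.5 and 96.3 with EPA, against 118, 114 and 141 in control cells.

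Several mu and pi genes are known targets of NRF2, as are other antioxidant genes. Whether NRF2 had a part in any change here was not tested. Of 15 tested NRF2 targets outside the transferases, 10 rose, 1 fell and 4 did not pass (18.4% of all genes tested rose and 15.6% fell), with a median log2 fold change of 0.32. The target that fell was Cbr1, a carbonyl reductase (log2 -0.22), a call that was lost without EPA replicate 1, 2 or 3 or control replicate 1 or 2. Of 7 tested regulators, 1 rose, Bach1 (log2 0.30), which encodes a repressor of NRF2 target genes, and this call was lost without EPA replicate 2 or 3 or control replicate 1 or 2. Nfe2l2, which encodes NRF2, had a log2 fold change of -0.05, and its inhibitor gene Keap1 had 0.08, and neither passed. Srxn1, which restores oxidised peroxiredoxins, rose 1.34-fold, with 508, 535 and 551 in the EPA samples and 386, 405 and 397 in the control samples. Ephx1, an epoxide hydrolase, had 164, 189 and 191 with EPA, against 85.8, 93.4 and 86.5 in control cells. Sqstm1, an autophagy receptor that also binds KEAP1, had 3635, 3777 and 3744 with EPA, against 2694, 2446 and 2641 in control cells (log2 0.52, SE 0.0719, limma adjusted p = 0.000568). Hmox1, the heme-degrading enzyme heme oxygenase, had 354, 321 and 272 with EPA, against 210, 192 and 164 in control cells (log2 0.74, SE 0.118, limma adjusted p = 0.00121).

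**Figure D4:**
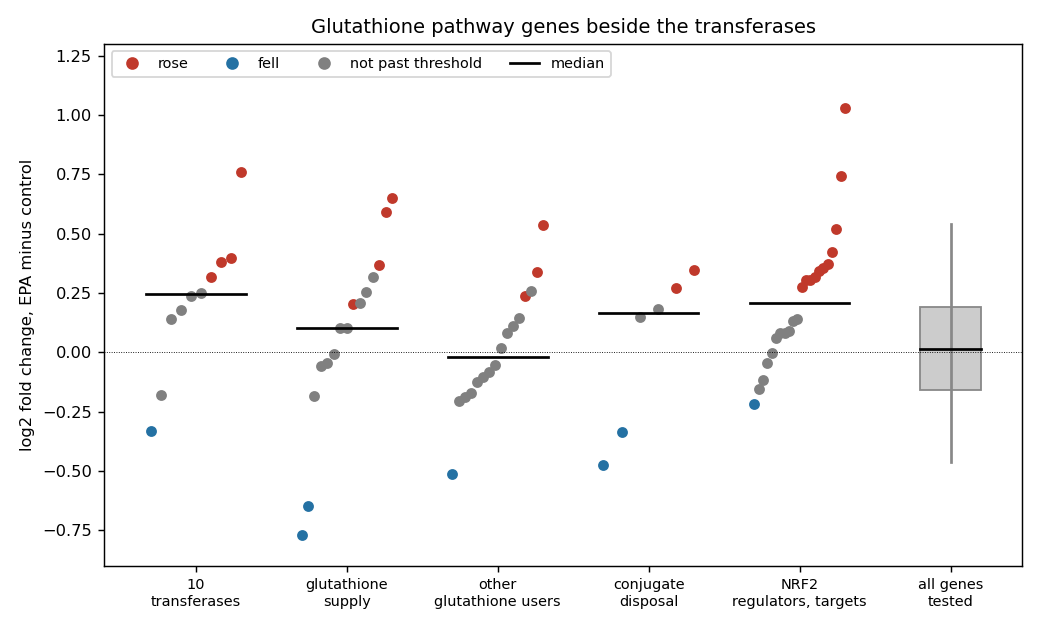
Log2 fold change, EPA minus control (y axis), of each tested gene in 5 lists, with list medians as black lines, and on the right the median, quartiles and 5th to 95th percentiles of all genes tested. The median was 0.24 for the 10 transferases, 0.10 for glutathione supply, -0.02 for other users, 0.17 for conjugate disposal and 0.21 for NRF2 regulators and targets, beside 0.01 for all genes.

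Marker genes of other cell types, and epithelial and intestinal ones for the colorectal origin of the line, were read on the same arrays. There 18.4% of all genes tested rose and 15.6% fell. Of 7 markers of hepatocytes, cells rich in transferases, 6 had a target and 0 were above background. Of 17 leukocyte markers 5 were above background, with 1 higher (Ms4a1, above background on 0 of the 3 control arrays and so tested only through its EPA values) and 1 lower (S100a8), and their summed intensity was 716 to 726 in EPA samples and 720 to 788 in control samples. Of 15 fibroblast and endothelial markers 8 were above background, with 5 higher and 1 lower, a median log2 fold change of 0.72, and a summed intensity of 2793 to 2931 in EPA samples and 2689 to 2753 in control samples. The fibroblast genes Col3a1 and Dcn were 2.20-fold and 2.10-fold higher with EPA, and Col1a2, Pdgfra and Pdgfrb were 1.82-fold, 1.78-fold and 1.53-fold higher. These changes exceed those of most transferase genes, and S100a4, which fell 1.39-fold, holds much of the sum. Of the same list, Col1a1 (log2 0.22, limma adjusted p = 0.239) and Acta2 (log2 -0.02, limma adjusted p = 0.807) did not pass the test. The fibroblast genes Lum, Thy1 and Fap and the endothelial genes Pecam1, Cdh5, Kdr and Tek were not above background. Of 15 epithelial and intestinal markers 3 were above background (Krt8, Lgals4 and Cldn7), and none of these 3 passed the test. The defining epithelial and intestinal genes Epcam, Cdh1, Cdx2 and Vil1 were not above background. The part of the marker genes in the transferase results was not tested.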

How the data were processed

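The deposited series table of intensity held normalised linear values of 6 arrays, with medians of 35.2 on each and sorted values that differed by at most 0.465%. Exports of the series name quantile normalisation in GenomeStudio 1.7.0 on MouseWG-6 v2 content, per the file headers. The sources used here do not give the rule by which probes of 1 target were merged, or any added constant. The authors' deposited comparison table gives a ratio, a log2 value and a p-value per target, with the test not stated. The deposited sample table lists 6 arrays on 1 BeadChip, so chips form no batch. Elsewhere, 102 columns of per-array values match no sample label and were not used.

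Background was the mode of the intensities (28.1) with the spread below it (SD 6.93). The limit of 39.5 lies above that mode at a one-sided 0.05 level. Exceeding it on all 3 arrays of at least 1 group left 11788 targets. Of these, 9806 were named through RefSeq (GRCm38.p6, names only). A member was read by the target of its own name, and for every other symbol the brightest target stood. Tests used lmFit and eBayes of limma 3.58.1 (R 4.3.3), two-sided, with Benjamini-Hochberg adjustment over 9267 genes. The number of arrays limits the precision. On simulated data for these 9267 genes, the fit recovered 26% of genes changed by 0.3 on the log2 scale, 66% at 0.5 and 92% at 1. Only a small part of the genes was changed in the simulation, whereas 34.0% were called in the real data. The adjusted p depends on that share, so recovery in the real data may differ. Uncorrected background makes folds of dim genes too small. Across kept targets, arrays of 1 group correlated at 0.994 to 0.997, and arrays of different groups at 0.984 to 0.986.

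The members and all gene lists were chosen with earlier results of these data known. Named were the 10 members, the measured other transferases and, of each further list, the 4 genes with the smallest p. Slc7a11, Gclm, Gclc, Cbr1, Bach1, Nfe2l2, Keap1 and the marker genes were singled out after their values were seen. Alternatives were another filter, scaling, background, target choice, variance model, pseudocount, a replicate block and leaving out each sample.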

Additional observations from a re-analysis of the deposited data

How the results depend on the processing

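Over 183 values of the 10 genes under alternatives, none changed direction and 168 kept their side of the threshold. Many of these could not change direction, because another filter, variance model or replicate block leaves the log2 fold change as it is. The 183 values also count the authors' deposited table. Its targets all have a raw p up to 0.05, so no member could lose its call there. Without the filter on dim targets (19964 genes tested) the counts over all genes were 731 higher and 582 lower, against 1708 and 1446. The members then called were 2 higher and 0 lower (5 higher and 1 lower in limma at an unadjusted p under 0.05), and the pathway lists had 8 higher and 3 lower, against 24 and 6. Member calls lost in that setting were those of Gstm2 (0.38, adjusted p = 0.0744), Gstm5 (0.32, adjusted p = 0.168) and Gstz1 (-0.33, adjusted p = 0.0965), while Gstm1 and Gstp1 passed. Of the other transferase and pathway genes named, Gsta2, Gstt3, G6pdx, Gpx7, Ethe1, Abcc5 and Acy1 lost their calls there. So did Abcc1, Abcc4, Fah, Slc7a11, Cbr1, Bach1 and Gclm. The setting without the filter tests more genes and takes in dim ones, and which of these matters was not tested. With background subtracted Gstm5 (0.34) did not pass, nor did Gclm (0.68, limma adjusted p = 0.0809) or Ethe1 (0.27, limma adjusted p = 0.0504). The same setting moved the log2 fold changes of other dim called genes by over 1.5 times, to 0.46 for Gstt3, 0.51 for Abcc1, 0.36 for Slc7a11 and -1.31 for Slc1a5. Gstt1 (0.25) passed among genes above background on all 6 arrays (adjusted p = 0.0454), and with the replicate block (0.25, adjusted p = 0.0471). Gsto1 passed with array weights (0.22, adjusted p = 0.0378). Leaving out 1 sample gave 3 to 5 members higher and 1 to 1 lower (over all genes 1303 to 1592 higher and 1077 to 1365 lower), 12 to 20 pathway genes higher, and log2 fold changes of 0.21 to 0.37 for Gstm5, 0.16 to 0.36 for Gsta4, 0.20 to 0.32 for Gstt1 and 0.13 to 0.24 for Gsto1. The pathway count of 12 came without control replicate 1, and 14 without EPA replicate 3; 16 without control replicate 3 was within 1.5 times. Leaving out 1 sample took Mapk8 from -0.11 to 0.0103 and Nfe2l2 from -0.0887 to 0.0104, both without a call. The sign turned without EPA replicate 3 (0.00136) or control replicate 1 (0.0103) for Mapk8 and without EPA replicate 2 (0.0104) or control replicate 3 (0.00812) for Nfe2l2. Whether samples of the same replicate number were paired is not labelled. Deviations of same-numbered samples from their group means correlated at -0.04, -0.18 and 0.10 across targets, which with 3 samples per group cannot settle it. The replicate block gave 5 members higher and 1 lower, with 2926 genes called against 3154. The authors' deposited table, which holds 4423 targets with a raw p up to 0.05, lists 4 of the 10 members, Gstm1 (0.76), Gstm2 (0.38), Gstp1 (0.40) and Gstz1 (-0.33), with the same direction as here, and Gstm5 is not in it. Signals near the background limit bound what can be said of Gstt1, Gstt2, Gsta2 and Mgst1.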

Other observations

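Genes that meet the transferases in other pathways were read as well. Fah, which acts directly after the Gstz1 enzyme in tyrosine breakdown, rose 1.27-fold while Gstz1 fell. Its intensity was 373, 446 and 433 in EPA samples and 306, 347 and 334 in control samples (log2 0.34, SE 0.0904, limma adjusted p = 0.0171), a call lost without EPA replicate 2 or 3 or control replicate 1. Hpd, Hgd and Tat, which act before them, were not above background. Of the kinase and adaptor genes Mapk8, Mapk9, Map3k5 and Traf2, whose proteins have been described as partners of the pi enzyme, 3 were tested and 0 passed in limma, and 0 had an unadjusted p under 0.05. Their log2 fold changes were -0.04 for Mapk8, 0.08 for Mapk9 and 0.15 for Traf2.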
